A study of Homo sapiens with 6 samples.

Results

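The CMG replicative helicase unwinds DNA at the replication fork, and the mRNAs of 10 genes that encode its subunits are described here in MDA-MB-453, a human breast cancer cell line. The genes were taken by symbol from a table of 36517 genes: the 6 subunits of the MCM ring (MCM2, MCM3, MCM4, MCM5, MCM6 and MCM7) and the 4 subunits of GINS (GINS1, GINS2, GINS3 and GINS4). All 10 were found, and all 10 passed the filter on low counts. The 6 libraries of mRNA were compared by group. Control cells carried a lentivirus with a negative-control hairpin (shNC, n = 3), and knockdown cells carried a lentivirus whose hairpin targets tRF-1-Ser, a fragment of a serine tRNA transcript (shtRF, n = 3). Both were collected at day 3 according to the labels, and both are transduced populations of the same line. The hairpin's target, being a small RNA, is not measured by these libraries, so the knockdown itself could not be checked in them. The paper reports a check of knockdown efficiency by qPCR in its cell models. The methods call the replicates biological, but whether they were separate transductions is not stated, so p-values measure the spread between these libraries.

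Replicating cells load the MCM ring onto origins in an inactive form during G1, a step known as licensing. In S phase, CDC45 and GINS join the ring, and these parts together form the active helicase, named CMG after CDC45, MCM and GINS. Genes of this machinery are textbook targets of the E2F transcription factors, which are held back by the RB family until cells commit to S phase. All subunits are present once in the assembled complex.

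The libraries held 63541413 to 78917459 counts, a range of 1.24-fold, and the 10 genes together took 0.1734% to 0.1815% of them in control and 0.1423% to 0.1479% in shtRF. Libraries of one group resembled each other more closely (Pearson r across genes 0.9973 to 0.998, genes not being independent replicates) than libraries of different groups (0.988 to 0.989). All 8 markers of a luminal breast line examined, among them EPCAM and KRT8, were expressed, and their summed level in CPM (counts scaled to a common library total by TMM) was 4294 to 4342 in control and 5427 to 5910 in shtRF. Of these, 3 rose, including the keratins KRT8 (log2 fold change 0.79) and KRT18 (0.64), 2 fell and 3 did not pass the edgeR test. Of 11 markers of blood, endothelial, stromal, liver and neural crest cells, 7 were too low to be tested and the whole list summed to 41.9 to 46.5 CPM in control and 23.8 to 26.6 CPM in shtRF. COL1A1 (32.2 ± 2.87 CPM in control and 20.9 ± 0.329 in shtRF) and ALB (10.5 ± 1.37 and 3.59 ± 0.911) made up nearly all of that sum and both fell. PTPRC, CD3E, PECAM1 and DCN had at most 10 counts in every library. The part of these markers in the results was not tested.

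The promoters of the subunit genes were described first, by looking up the letters of E2F-type sites. RefSeq windows of 300 bases, from 250 before to 50 after an annotated start (build GRCh38.p14), were matched for 7 of the 10 members, whereas MCM4, MCM5 and GINS4 were not matched. The 4 words of 8 bases TTTCCCGC, TTTCGCGC, TTTGCCGC and TTTGGCGC were searched on both strands. Words on opposite strands can overlap, as they do in the MCM2 stretch, where TTTCGCGC is read from either strand. Each of the 7 genes held at least 1 of these words, in 7 of their 9 windows, whereas 3.31% of 35116 windows of all genes did. The site closest to the annotated start is printed for each gene, with the E2F-type word in capitals and 11 flanking bases on either side, on the strand where the word reads as listed. Where words overlapped on opposite strands, as in MCM2 and MCM6, the one on the strand of the gene is printed, although in MCM6 its overlapping partner on the other strand began closer to the start, at position -86.
MCM2: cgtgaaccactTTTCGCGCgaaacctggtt
MCM3: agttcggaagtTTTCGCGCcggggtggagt
MCM6: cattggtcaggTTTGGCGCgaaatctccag
MCM7: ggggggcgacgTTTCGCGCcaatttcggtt
GINS1: ccgctccgcgcTTTGGCGCcgaacaaagct
GINS2: gcggccgccgtTTTCCCGCcacggcgagag
GINS3: attgaaactcgTTTCCCGCgcccggggacg

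These stretches lie at chr3:127598402-127598431 on the plus strand (MCM2), chr6:52284728-52284757 on the minus strand (MCM3), chr2:135876515-135876544 on the minus strand (MCM6) and chr7:100101388-100101417 on the minus strand (MCM7). Those of GINS lie at chr20:25407667-25407696 on the minus strand (GINS1), chr16:85688967-85688996 on the plus strand (GINS2) and chr16:58392455-58392484 on the minus strand (GINS3). Read along the gene, the word began at position -90 in MCM6 and at position -31 in GINS2, where -1 is the base before the annotated start. In MCM2, MCM3, MCM7, GINS1 and GINS3 it began between positions -9 and 6. For MCM7 the position refers to the start of the window chr7:100101348-100101647, and the other windows of that gene held none of the words. The words were held by MCM2, MCM7 and GINS2, whose mRNAs fell in shtRF as described next, and likewise by MCM3, MCM6, GINS1 and GINS3, whose differences did not pass the test. CCAAT, the letters of another common promoter element, was present in 7 of the 9 member windows and in 34.6% of all windows. Several of those member windows belong to MCM7 alone. Counted by gene, CCAAT was present in 5 of the 7 members and in 39.7% of all genes with a window, and MCM2 and GINS3 had none. None of the 3 windows of CDC45, the remaining part of the helicase, held an E2F-type word. A match of letters is a description of the sequence and does not show that a factor binds there.

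Levels of different subunits were compared per length, as RPKM (counts per kilobase of exon, scaled to the library total). The length was all annotated exonic bases of a gene, from 3264 in GINS2 to 7338 in MCM5. Lengths of the transcripts present were not measured, so the order and the percentiles below depend on the annotation. In CPM, which uses no length, the control means of MCM5 and MCM6 were 177 and 90.9. MCM3 was the most abundant by far, at 175 ± 6.09 RPKM in control (SD, n = 3). MCM7 (56.3 ± 2.32), MCM2 (53.3 ± 1.52) and MCM4 (36.5 ± 1.54) followed, and MCM5 (24.6 ± 0.406) and MCM6 (22.5 ± 1.25) were the lowest of the ring. Every GINS mRNA was below every ring mRNA, as the plot of levels per length shows. GINS1 stood at 13.3 ± 1.23 RPKM, whereas GINS2 (3.74 ± 0.321), GINS3 (2.84 ± 0.351) and GINS4 (2.41 ± 0.0767) were each near the middle of all tested genes, at the percentiles 55.2, 53.8 and 48.8 by their mean over the 6 libraries. Thus mRNAs for subunits that sit once each in the complex spanned from 2.41 to 175 RPKM. In control, the ranges of neighbours in this order were apart except for GINS3 and GINS4. In shtRF, MCM7 and MCM2 overlapped, as did MCM5 and MCM6, and GINS2 (2.24 ± 0.234 RPKM) dropped below GINS3 (2.80 ± 0.201) to a range that overlapped that of GINS4.

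**Figure D1:**
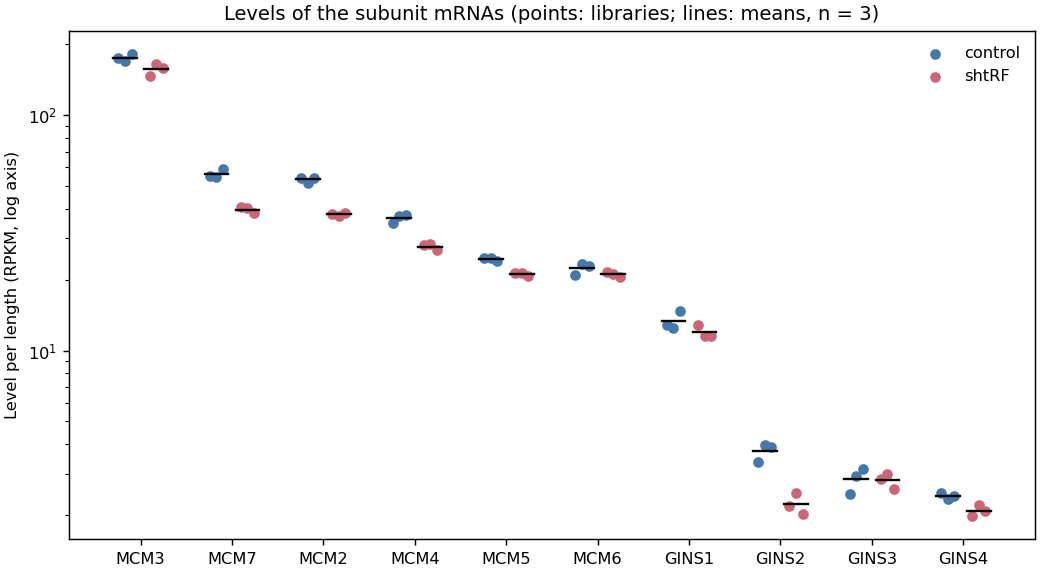
Levels per length of the 10 subunit mRNAs in RPKM on a log axis, ordered by their control mean, with points for libraries and lines for the means of 3. MCM3 lies highest, with a mean of 175 RPKM in control, and the group means of the 3 lowest GINS mRNAs lie between 2.09 and 3.74 RPKM.

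The question was then which subunits differed between knockdown and control cells. At an adjusted p under 0.05 (edgeR quasi-likelihood test over 19628 genes), MCM2, MCM4, MCM5, MCM7 and GINS2 fell in shtRF, so 5 of the 10 genes were called lower and 0 higher. Among all tested genes 39.5% were called, 18.9% as lower and 20.6% as higher. Among the 9015 genes at least as abundant in mean CPM as the least abundant member, 24.8% were lower and 31.5% higher. The count of 0 higher was also 0 at an unadjusted p under 0.05 and with DESeq2. In TMM-scaled CPM, the same 5 genes had all 3 shtRF libraries below all 3 control libraries, as had 23.8% of tested genes. In RPKM, which carries no TMM scaling, MCM3 (169 to 181 in control and 147 to 165 in shtRF) and GINS4 (2.33 to 2.49 and 1.98 to 2.21) did not overlap either. The share of all genes that did not overlap in RPKM was not counted, so these 2 cannot be set beside it. TMM factors were 1.01 to 1.03 in control and 0.961 to 1.01 in shtRF, so leaving them out lowers shtRF relative to control for every gene. The median log2 fold change of the 10 was -0.16, beside -0.0025 over all tested genes, and none of the falls reached 2-fold. Because RNA came from bulk cultures, fewer cells in S phase and less mRNA per cell cannot be told apart.

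**Figure D2:**
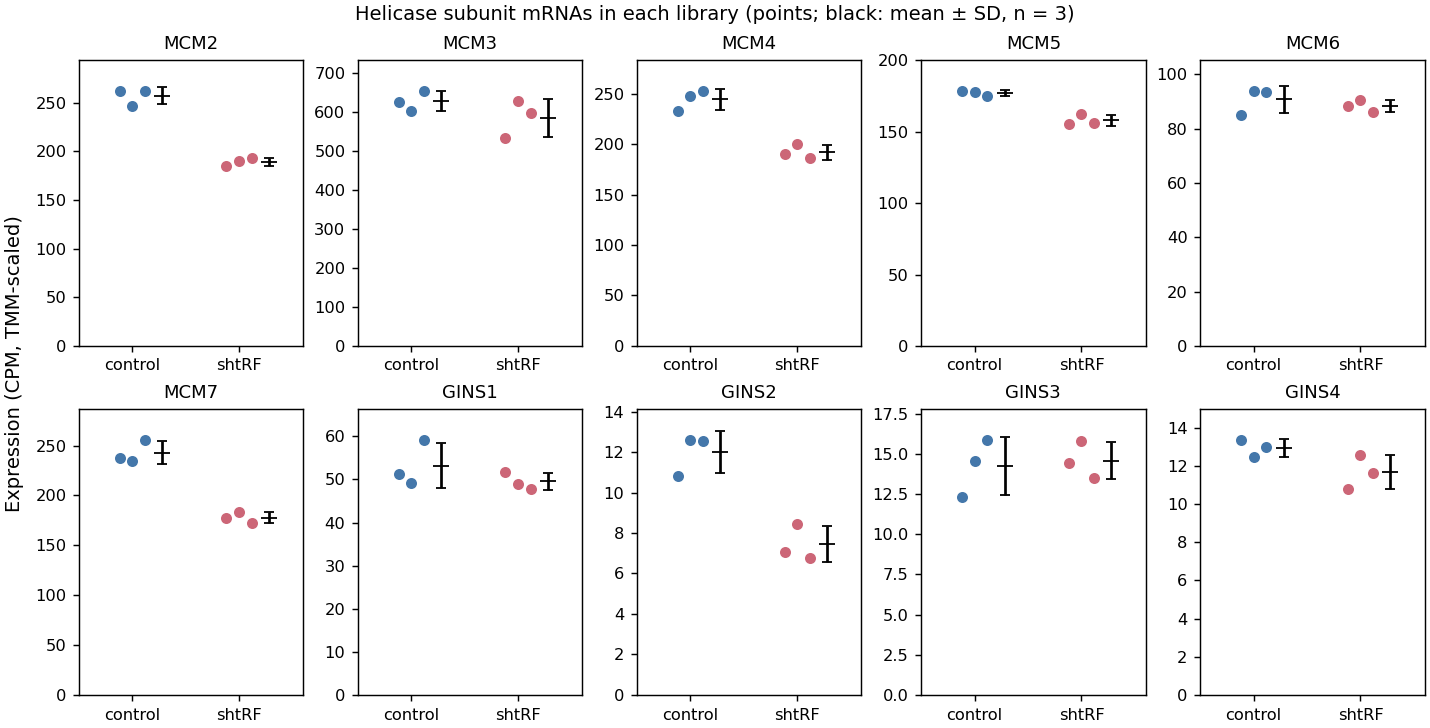
Expression of each subunit in CPM scaled by TMM factors, on axes from 0, with points for the libraries and black marks for the mean ± SD of 3. The shtRF points lie below all control points for MCM2, MCM4, MCM5, MCM7 and GINS2 and overlap them for the other 5 genes.

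Within the ring, MCM7 and MCM2 had the lowest estimates. MCM7 (chr7:100092728-100101940, GRCh38 as in the table) belongs with MCM4 and MCM6 to a part of the ring that unwinds DNA on its own in the test tube. It was 238, 234 and 256 CPM in control and 177, 183 and 172 CPM in shtRF. Every shtRF library was therefore below every control library, and MCM7 fell by 26.9% (log2 fold change -0.45 ± 0.05, SE; adjusted p = 6.40e-07). Of its exonic bases 8.94% are shared with AP4M1 on the opposite strand, which was 13.4 CPM in control and did not pass the test (-0.20, adjusted p = 0.0905). MCM2 (chr3:127598223-127622436) forms one side of the gate through which DNA enters the ring and also carries histones at the fork. Its values of 262, 247 and 262 CPM in control and 184, 190 and 193 CPM in shtRF did not overlap. MCM2 fell by 26.4% (log2 fold change -0.44 ± 0.05, SE; adjusted p = 5.30e-07).

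MCM4 and MCM5 also fell. MCM4 (chr8:47960185-47978160), whose tail is phosphorylated by the CDC7 kinase when origins fire, was 233, 248 and 253 CPM in control and 190, 201 and 186 CPM in shtRF. Those groups stood apart, with a fall of 21.4% (log2 fold change -0.35 ± 0.05, SE; adjusted p = 2.19e-05). MCM5 (chr22:35400063-35425430) is the partner of MCM2 at the gate. Its control libraries were tightly grouped at 179, 178 and 175 CPM, and the shtRF libraries at 156, 162 and 156 CPM lay below them. MCM5 fell by 10.7% (log2 fold change -0.16 ± 0.05, SE; adjusted p = 0.0133), and without shtRF replicate 3 this no longer passed (-0.15, adjusted p = 0.0712).

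MCM3 and MCM6 did not pass the test. MCM3 (chr6:52264009-52284881), through which the ring is recruited to the origin recognition complex, had 625, 602 and 654 CPM in control and 532, 627 and 596 CPM in shtRF. shtRF replicate 2 lay within the control range, and shtRF replicate 1 was the lowest of the 6 libraries. The difference was a log2 fold change of -0.10 with a 95% interval from -0.23 to 0.03 (adjusted p = 0.205). MCM6 (chr2:135839626-135876426) had 85.1, 94 and 93.4 CPM in control and 88.3, 90.4 and 86.3 CPM in shtRF. All shtRF values fell inside the control range, and the interval of the log2 fold change ran from -0.15 to 0.07 around -0.04 (adjusted p = 0.599). That interval and the one of MCM2, from -0.55 to -0.33, do not overlap. The same holds for MCM6 against MCM7 (-0.56 to -0.34) and MCM4 (-0.46 to -0.23).

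**Figure D3:**
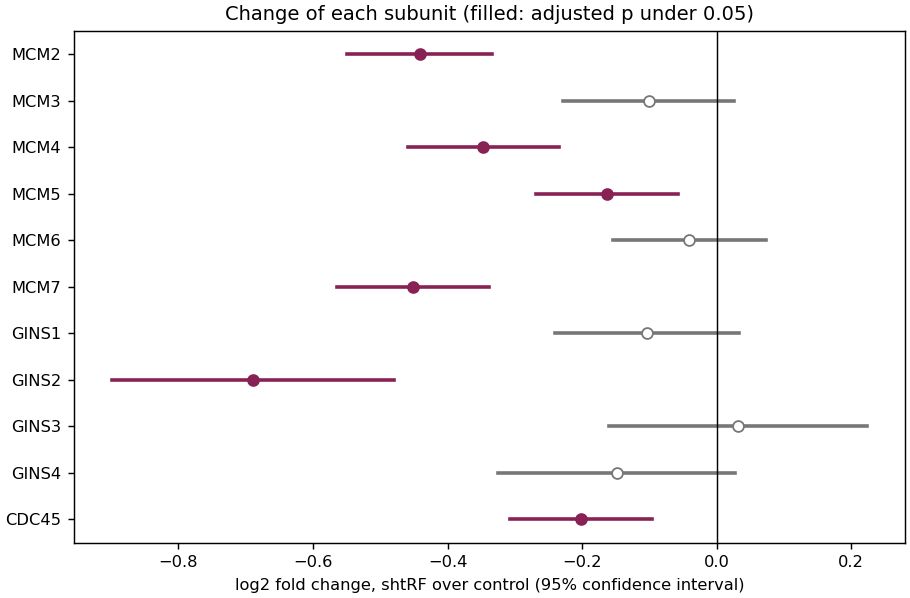
Log2 fold change of shtRF over control with its 95% confidence interval for the 10 subunits and CDC45, filled where the adjusted p was under 0.05. The intervals of MCM2, MCM4, MCM5, MCM7, GINS2 and CDC45 lie below 0, and GINS2 has the lowest estimate at -0.69.

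GINS holds CDC45 to the ring and tethers the leading-strand polymerase epsilon to it. Of its subunits, GINS2 (chr16:85676198-85690073) passed the test. It was 10.8, 12.6 and 12.6 CPM in control and 7.08, 8.46 and 6.79 CPM in shtRF. No shtRF library reached the lowest control library, and GINS2 fell by 38% (log2 fold change -0.69 ± 0.10, SE; adjusted p = 9.68e-06). Of the 10 subunits it had the lowest log2 fold change, with an interval from -0.90 to -0.48. GINS2 counts were moderate, from 421 to 1003 per library, and only 0.21% of its exonic bases are shared with another gene, GSE1.

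The other GINS mRNAs did not pass. GINS1 (chr20:25407727-25452628) was 51.2, 49.3 and 59.2 CPM in control and 51.8, 49 and 47.8 CPM in shtRF, so that control replicate 3 stood above the rest and the groups overlapped (log2 fold change -0.10, 95% interval -0.24 to 0.03, adjusted p = 0.230). GINS4 (chr8:41529206-41545046) was 13.4, 12.5 and 13 CPM in control and 10.8, 12.6 and 11.7 CPM in shtRF, with shtRF replicate 2 just above the lowest control library. Its log2 fold change was -0.15 (95% interval -0.32 to 0.03, adjusted p = 0.178). GINS3 (chr16:58295080-58406144) was 12.3, 14.6 and 15.9 CPM in control and 14.5, 15.8 and 13.5 CPM in shtRF, a log2 fold change of 0.03 (95% interval -0.16 to 0.22, adjusted p = 0.825). GINS3 libraries of both groups were spread over the same values, and the sign of the difference was negative in 5 of 16 alternatives. The interval of GINS2 lies wholly below those of GINS1, GINS3 and GINS4. Of the exonic bases 10.9% in GINS3 and 23.6% in GINS4 are shared with noncoding genes on the opposite strand. How counting treated strand is not stated, so these values are less certain than those of genes with no overlap.

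Uneven falls altered the make-up of the ring at the mRNA level. The summed level of the 6 ring mRNAs was 368 ± 9.58 RPKM in control and 304 ± 8.23 RPKM in shtRF (SD, n = 3), and that of the 4 GINS mRNAs was 22.3 ± 1.63 and 19.1 ± 0.857 RPKM. Neither sum overlapped between the groups, whereas the ratio of the ring sum to the GINS sum did, at 15.7 to 17.2 in control and 14.9 to 16.7 in shtRF. MCM3 supplied 47.8%, 46.9% and 47.8% of the ring sum in control and 49.5%, 52.7% and 52.4% of it in shtRF. MCM6 likewise had a larger share in shtRF, at 6.73% to 7.29% against 5.77% to 6.48%. The shares of MCM7 (15.3% ± 0.233 to 13.1% ± 0.585) and MCM2 (14.5% ± 0.361 to 12.4% ± 0.469) were smaller in shtRF, as was that of MCM4 (9.91% ± 0.389 to 9.09% ± 0.356). The share of MCM5 overlapped between the groups. In GINS, the share of GINS2 was 16%, 18.3% and 16.1% in control and 11%, 12.9% and 11.2% in shtRF, and that of GINS3 was 11.6% to 13.5% in control and 14.2% to 15.5% in shtRF. The shares of GINS1 and GINS4 overlapped. Shares of one sum depend on each other and on the annotated exonic length of each gene, and these were not tested.

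**Figure D4:**
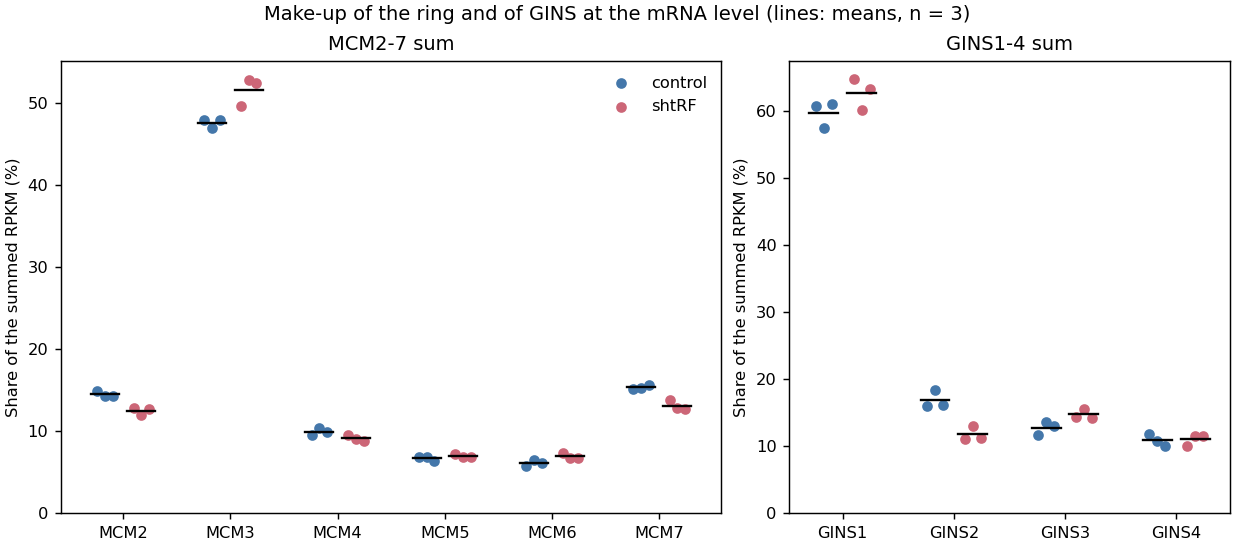
Share of each subunit in the summed RPKM of the ring (left) and of GINS (right), in percent, with points for libraries and lines for the means of 3. MCM3 takes a larger share of the ring sum in the shtRF libraries, while MCM2, MCM7 and GINS2 take a smaller share of their sums.

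Each library was also set against the mean of its own group. In control replicate 3, 9 of the 10 members lay above their control mean (median deviation 0.056 on the log2 scale), against 3 in control replicate 1 (-0.040) and 5 in control replicate 2 (-0.022). In shtRF replicate 2, 9 members lay above their shtRF mean (0.054), against 1 in replicate 1 (-0.019) and 3 in replicate 3 (-0.039). These counts were not tested.

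CDC45, the remaining part of the helicase, is not among the 10 genes but is needed for its activity. It was 162, 162 and 167 CPM in control and 141, 146 and 140 CPM in shtRF. Its groups did not overlap, and CDC45 fell by 13.1% (log2 fold change -0.20 ± 0.05, SE; adjusted p = 0.00299). This lies between the values of MCM5 and MCM4. Of 4 related genes, 2 were lower. MCMBP, which binds MCM proteins outside the ring, fell by 24.1% from 71.7 ± 7.44 CPM (adjusted p = 1.46e-04), and MCMDC2, a relative with a role in meiosis, fell by 34.6% from 5.20 ± 0.871 CPM (adjusted p = 0.00149). The paralogues MCM8 (log2 fold change 0.12) and MCM9 (0.04), which act in recombination rather than in the ring, did not pass (adjusted p = 0.0970 and 0.693).

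The genes that load, activate, accompany and remove the helicase were examined as lists. Together with CDC45 these were 56 genes, of which 29 were lower and 6 higher with an adjusted p under 0.05, and the median log2 fold change was -0.17. In percent, 51.8% were lower and 10.7% higher, beside 18.9% and 20.6% of all tested genes. Of 9 licensing genes, 4 were lower and 3 higher. The list holds genes that put the ring onto origins and GMNN, whose product geminin blocks that step and which was among those lower (log2 fold change -0.32). CDT1, the loader that escorts the ring to origins, had the largest fall of that list, with 21.3 ± 1.63 CPM in control against 11.6 ± 0.643 in shtRF (log2 fold change -0.87, adjusted p = 1.35e-08). ORC1, an ATPase subunit of the origin recognition complex, fell by 0.67 on the log2 scale from 23.1 ± 1.57 CPM (adjusted p = 2.97e-07). The 3 that rose were the origin recognition complex subunits ORC2 (0.30), ORC4 (0.23) and ORC6 (0.16), so the list did not move as a block. That is 33.3% of the list, beside 20.6% over all tested genes and 31.5% among those at least as abundant as the least abundant member.

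Of 13 genes that turn the loaded ring into an active helicase, 8 were lower and the other 5 did not pass. TICRR, which brings GINS and CDC45 to origins on a signal from cyclin-dependent kinase, had a log2 fold change of -0.52 and went from 38.7 ± 0.863 to 26.9 ± 1.63 CPM (adjusted p = 6.06e-07). Its partner MTBP also fell by 0.52, from 7.49 ± 0.606 CPM (adjusted p = 7.90e-04). Of 28 genes of the moving fork, 16 were lower and 3 higher. RPA1, which coats the single strands that the helicase exposes, fell by 39% to 16.3 ± 1.58 CPM in shtRF (control 26.7 ± 2.25, adjusted p = 3.23e-07). POLD4, the small accessory subunit of polymerase delta, went the other way, from 9.69 ± 0.871 to 16.5 ± 0.628 CPM (0.77, adjusted p = 2.07e-07). So did CLSPN (189 ± 14.0 to 291 ± 14.5 CPM, 0.62, adjusted p = 2.62e-08) and POLE3 (261 ± 11.6 to 301 ± 24.6 CPM, 0.20, adjusted p = 0.00986). The 5 genes that take the helicase off DNA had log2 fold changes between -0.12 and 0.03, and their adjusted p lay at or above 0.217 with edgeR.

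**Figure D5:**
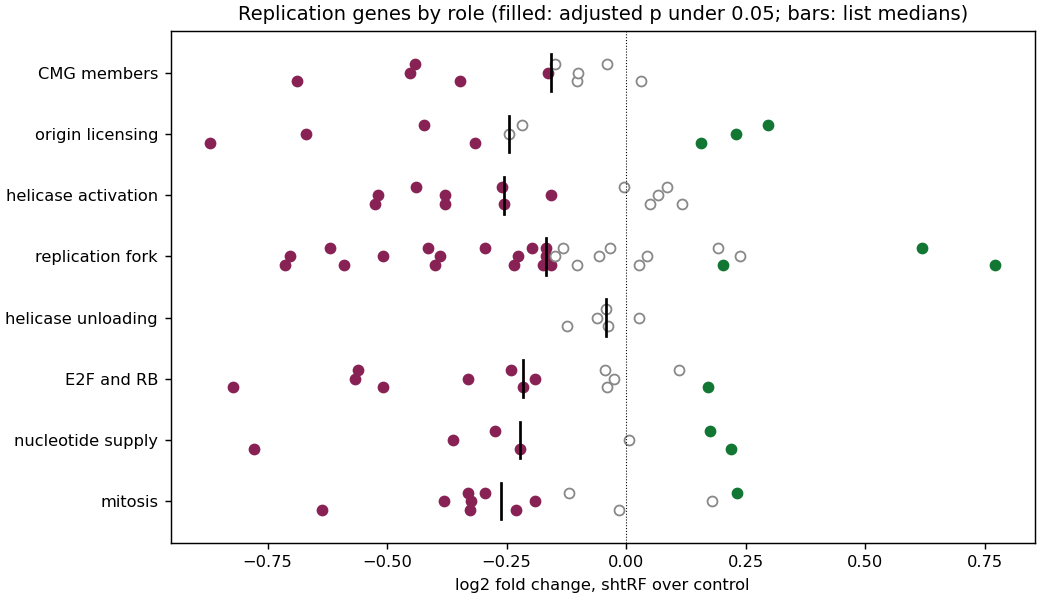
Log2 fold change of shtRF over control for genes in 8 lists, where each point is a gene, filled points had an adjusted p under 0.05 and bars are list medians. The medians lie between -0.26 for mitosis and -0.04 for helicase unloading, and the single genes within a list spread over both sides of 0 in most lists.

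Lists outside the replication machinery were set beside these. The shares over all tested genes to set beside each list count are 18.9% lower and 20.6% higher. Of 13 E2F and RB family genes, 8 were lower and 1 higher, with a median of -0.22. The repressive family member E2F8 fell by 43.4% to 10.7 ± 0.893 CPM (control 18.9 ± 1.01, adjusted p = 5.21e-08) and the activator E2F2 fell by 0.57 on the log2 scale from 23.8 ± 0.709 CPM (adjusted p = 6.29e-06). E2F1, the classical activator, was the 1 that was higher (33.3 ± 1.59 to 37.5 ± 0.59 CPM, adjusted p = 0.0265), a call that 9 of 16 alternatives did not make. Of 7 genes of nucleotide supply, 4 were lower and 2 higher. DUT, which removes dUTP, fell by 0.78 on the log2 scale from 117 ± 4.15 CPM and the thymidylate synthase gene TYMS fell by 0.36 from 62.2 ± 0.802 CPM. Of 12 mitotic genes, 8 were lower and 1 higher, with a median of -0.26. Among these, AURKB fell by 0.64 and BIRC5 by 0.38 on the log2 scale. CDK1 was higher (0.23, adjusted p = 0.0173), although its groups overlapped and 5 of 16 alternatives did not call it. The difference between these lists and the helicase genes was not tested.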

How the data were processed

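Total RNA was extracted with TRIzol, and stranded mRNA libraries were sequenced as read pairs on a NovaSeq instrument. The authors deposited raw read counts per gene. The submitters' processing notes name Trimmomatic 0.36, featureCounts of Subread 1.5.1, edgeR 3.12.1 and the build GRCh38, and the aligner is not given in the sources used here. The authors also deposited RPKM values. The part used here held 4997 complete genes and 0 of the 10 members. In the 4991 genes matched by symbol, 100% of the RPKM values equalled the count per kilobase of exon, scaled to the library total, within a relative tolerance of 0.0001, so RPKM of the members was recomputed in that way.

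Counts were tested with edgeR 4.0.16 in R 4.3.3: filterByExpr by group (minimum count 10), TMM factors (0.961 to 1.03), and the quasi-likelihood test, in which group was the single term and all 6 libraries entered. Benjamini-Hochberg adjustment covered 19628 genes. The standard error was the absolute log2 fold change divided by the root of F. CPM used TMM-scaled totals. Per library, even numbers made up 74.2% to 77.1% of counts from 1 to 4 but 49.7% to 50.7% of counts from 1000 upwards, so both mates of a pair may have been counted and halved counts were tried. Chi-square per degree of freedom between replicates was 6.31 to 19.4, so no library appeared to be deposited more than once. On simulated counts of 19299 genes, edgeR recovered 99 of 100 genes changed by 1 on the log2 scale and 76 of 100 changed by 0.5, with 7 false calls among 182. The changed genes were drawn from the more abundant ones and went up and down equally often. Far fewer genes were changed there than the 39.5% called in the data. Changes smaller than 0.5 were not simulated, so these rates may not hold for the data.

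The members and the gene lists were chosen with earlier results of these data known, so list counts are descriptions and no test was run over a list. Besides the 10 members, CDC45 and genes sharing exonic bases with a member, the text names in each list the 2 genes with the largest called change among those of at least 2 CPM and any gene that was alone in its direction. CD3E, CLSPN, DCN, EPCAM, GMNN, MCM8, MCM9, ORC2, ORC4, ORC6, PECAM1, POLE3, PRKDC and PTPRC were named after their values were seen. Alternatives were RLE and upper quartile scaling, 3 other filters, DESeq2 1.42.0, limma-trend (limma 3.58.1) on log2(RPKM + 1) and log2(RPKM + 0.1), a replicate block, halved counts, and each library left out in turn. Of the marker genes, 2 are not reported here and were left out of the lists.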

Additional observations from a re-analysis of the deposited data

How the results depend on the processing

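Of 160 values of the 10 members under 16 alternatives, 154 kept their direction and their side of the threshold. MCM2, MCM4, MCM7, GINS2 and CDC45 were called in all 16, and MCM3, MCM6, GINS1 and GINS4 in none. MCM5 was lost without shtRF replicate 3 (-0.15, adjusted p = 0.0712). GINS3, never called, was -0.0052 under upper quartile scaling, -0.012 on log2(RPKM + 1), -0.015 on log2(RPKM + 0.1) and -0.068 to 0.12 when 1 library was left out. The number of members called lower was 4 to 5 without 1 library and 5 otherwise.

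Of the other replication genes, 3 were higher on either RPKM scale and 3 to 9 when 1 library was left out (3 without control replicate 1 and 9 without control replicate 3); the cause was not tested. Those lower numbered 22 to 30 in every alternative. Over all genes, upper quartile scaling gave 4174 lower and 3508 higher genes in place of 3704 and 4046, and log2(RPKM + 0.1) gave 3840 and 2903.

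Same-numbered libraries did not deviate together (correlations 0.018, -0.0029 and 0.0045). A replicate block gave 5 and 0 calls for the members, 29 and 8 for the other replication genes, and 3776 and 4123 over all genes, lower and higher in turn. Scaling of RPKM by TMM-adjusted totals moved no sum by more than its SD, but it brought the groups closer to each other. The ring sum became 361 in control and 310 in shtRF, in place of 368 and 304. The GINS sum became 21.9 in control and 19.4 in shtRF, in place of 22.3 and 19.1. GINS2, GINS3 and GINS4 rest on 421 to 1268 counts per library, so their intervals are wider than those of the ring, where each library held at least 5350.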

Other observations

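PRKDC, whose start lies beside that of MCM4 on the opposite strand and which encodes the catalytic subunit of DNA-dependent protein kinase, was examined after its values had been seen. It was 470, 475 and 506 CPM in control and 390, 393 and 381 CPM in shtRF. Its groups did not overlap, and PRKDC fell by 19.8% (log2 fold change -0.32 ± 0.05, SE; adjusted p = 4.63e-05), beside 21.4% for MCM4. The neighbour of MCM7, AP4M1, was -0.20 and did not pass, and TPRA1, which shares 0.59% of the exonic bases of MCM2, was 0.15 (adjusted p = 0.322).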
